A study of Mus musculus with 5 samples.

Results

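Lef1, Tcf7, Tcf7l1 and Tcf7l2 encode the TCF/LEF transcription factors, the DNA-binding end of the canonical WNT pathway, and Axin2 encodes a feedback inhibitor of the same pathway. Chromatin accessibility at these 5 genes was read from ATAC-seq peak lists, in which a peak marks a stretch of DNA that a transposase could cut more often than the background of its library. Peaks of 5 libraries were merged into regions wherever they shared at least 1 bp, and every region in the body of 1 of the genes or within 100 kb of it was taken. This gave 185 of the 86713 regions of the whole series: 38 at Lef1, 23 at Tcf7, 50 at Tcf7l1, 44 at Tcf7l2 and 30 at Axin2. Each library came from 50K cells of the anterior forelimb pair of 1 mouse embryo at E11.5 (40 to 48 somites). The 2 control embryos were Prx+/+;Smarcc1c/c and the 3 mutant embryos PrxCre/+;Smarcc1c/c, so all 5 carried the conditional Smarcc1 allele on both copies and only the mutants carried the Cre. Smarcc1 encodes a core subunit of the BAF chromatin remodelling complex. The Prx enhancer drives Cre in limb mesenchyme, not in the ectoderm that covers it, and the labels describe no step that removed ectoderm.

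In cells without WNT signal, TCF/LEF proteins sit on DNA through an HMG box and recruit Groucho/TLE corepressors. When WNT ligands arrive, beta-catenin escapes a destruction complex built on AXIN scaffolds, enters the nucleus and binds TCF/LEF proteins, which then activate their targets. Lef1 and Tcf7 act mostly as activators and overlap in limb bud formation, Tcf7l1 acts mostly as a repressor, Tcf7l2 does either, and Axin2 is itself a direct target that closes a feedback loop. In the limb bud, WNT ligands of the ectoderm keep the mesenchyme beneath it growing and undifferentiated.

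The lists held 68959 and 60333 peaks for controls 1 and 2, against 36719, 42794 and 27194 for mutants 1, 2 and 3. Read numbers are unknown, but the deposited folds lay on an even grid that gave a background of 4.77 and 6.42 fragments per position for the controls and of 5.48, 5.09 and 4.95 for the mutants. Lists started at folds of 2.29 to 2.52, and a region with no peak may be accessible below that level. Fold is the authors' enrichment of a peak over the background of its own library and is not scaled between libraries. Peaks at gene ends were also counted at marker genes of cell types. Of 8 limb mesenchyme markers, 8 had one in each control and in mutants 1 and 2. In mutant 3, 6 had one, and Prrx2 and Tbx5 did not. Of 8 ectoderm markers, 6 and 7 had one in the controls and 5, 4 and 3 in mutants 1, 2 and 3. Epcam, Cdh1 and Perp had one in every library, and Trp63 had none in any. Krt8 had one in both controls and mutants 1 and 2, and Krt18 in both controls and mutant 1. Krt14 had one in both controls and in no mutant, and Krt5 in control 2 alone. Neural crest and glia markers had a gene-end peak at 6 and 5 of 6 genes in the controls and at 5, 6 and 5 in mutants 1, 2 and 3. These counts thus do not tell limb mesenchyme from other tissues. A peak does not measure expression. In such bulk samples, fewer cells of a type and less accessible chromatin per cell cannot be told apart, and the part of ectoderm in the results below was not tested.

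Promoter sequences are printed for the outermost listed start site of each gene, called its outer start site. As a contrast chosen after the values were seen, they are also printed for the 2 internal start sites where most libraries had no peak. At Tcf7 and Axin2 the printed outer window lies wholly inside the RefSeq gene body, which begins farther upstream, at positions 52283383 and 108917828. RefSeq (GRCm38.p6, the coordinates of mm10) lists 10 start sites for the 5 genes, and all 5 genes matched. Each sequence runs from 250 bases before to 50 bases after a start site, and capitals mark the GC box GGGCGG and the TCF/LEF core CTTTGA on either strand (CCGCCC and TCAAAG on the other). The GC box stood in 35.9% and the TCF/LEF core in 16.0% of all 32619 RefSeq promoters of this length. The 5 sequences at the outer start sites come first and those of 2 internal start sites last.
Lef1 start site (chr3:131110047-131110346, + strand): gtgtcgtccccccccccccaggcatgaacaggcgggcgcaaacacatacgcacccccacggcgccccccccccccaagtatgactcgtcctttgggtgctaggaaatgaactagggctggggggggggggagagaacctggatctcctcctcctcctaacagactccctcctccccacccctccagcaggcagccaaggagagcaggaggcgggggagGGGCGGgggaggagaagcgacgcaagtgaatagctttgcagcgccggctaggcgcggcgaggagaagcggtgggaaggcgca
Tcf7 start site (chr11:52282965-52283264, - strand): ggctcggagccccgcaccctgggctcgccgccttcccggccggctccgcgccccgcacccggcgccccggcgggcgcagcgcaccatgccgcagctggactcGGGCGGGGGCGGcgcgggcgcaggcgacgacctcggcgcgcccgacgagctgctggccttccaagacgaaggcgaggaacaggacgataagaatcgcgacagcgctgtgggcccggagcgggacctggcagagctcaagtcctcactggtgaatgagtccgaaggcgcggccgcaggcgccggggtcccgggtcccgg
Tcf7l2 start site (chr19:55741560-55741859, + strand): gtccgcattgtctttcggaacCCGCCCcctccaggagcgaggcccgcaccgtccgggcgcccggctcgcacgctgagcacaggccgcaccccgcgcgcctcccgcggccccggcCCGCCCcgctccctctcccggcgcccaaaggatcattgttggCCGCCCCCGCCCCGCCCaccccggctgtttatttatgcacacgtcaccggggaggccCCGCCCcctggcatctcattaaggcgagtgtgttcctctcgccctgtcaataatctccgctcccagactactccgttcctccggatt
Tcf7l1 start site (chr6:72788996-72789295, - strand): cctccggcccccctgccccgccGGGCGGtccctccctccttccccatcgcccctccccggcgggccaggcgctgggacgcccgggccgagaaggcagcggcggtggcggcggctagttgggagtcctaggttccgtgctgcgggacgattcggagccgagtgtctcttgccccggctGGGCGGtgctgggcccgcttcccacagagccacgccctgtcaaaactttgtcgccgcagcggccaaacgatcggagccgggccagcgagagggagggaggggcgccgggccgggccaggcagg
Axin2 start site (chr11:108920099-108920398, + strand): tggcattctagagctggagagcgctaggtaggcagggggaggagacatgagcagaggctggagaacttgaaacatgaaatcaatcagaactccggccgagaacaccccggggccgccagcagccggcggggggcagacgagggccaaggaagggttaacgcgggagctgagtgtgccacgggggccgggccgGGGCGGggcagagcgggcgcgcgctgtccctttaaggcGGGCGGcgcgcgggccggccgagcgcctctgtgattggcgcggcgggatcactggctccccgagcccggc
Lef1 internal start site (chr3:131156044-131156343, + strand): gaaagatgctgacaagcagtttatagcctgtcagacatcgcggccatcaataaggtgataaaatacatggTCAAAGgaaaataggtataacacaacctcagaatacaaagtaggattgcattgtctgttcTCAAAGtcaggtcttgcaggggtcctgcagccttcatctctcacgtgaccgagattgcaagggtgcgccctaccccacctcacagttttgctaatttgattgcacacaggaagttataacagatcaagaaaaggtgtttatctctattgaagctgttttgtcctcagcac
Tcf7l2 internal start site (chr19:55895071-55895370, + strand): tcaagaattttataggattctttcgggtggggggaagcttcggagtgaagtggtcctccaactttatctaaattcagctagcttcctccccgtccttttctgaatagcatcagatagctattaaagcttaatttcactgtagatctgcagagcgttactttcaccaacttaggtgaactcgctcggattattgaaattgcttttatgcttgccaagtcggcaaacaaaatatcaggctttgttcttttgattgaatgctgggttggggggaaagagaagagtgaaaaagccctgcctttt

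The outer start sites lay in GC-rich sequence, with 67.3% G and C and 18 CpG at Lef1, 76.3% and 45 at Tcf7, 70.0% and 34 at Tcf7l2, 75.3% and 34 at Tcf7l1 and 70.0% and 31 at Axin2. Each held 1 to 6 GC boxes and no TCF/LEF core. The printed internal start site of Lef1 had 43.7% G and C, 5 CpG, no GC box and 2 TCF/LEF cores, which began 180 and 120 bases before it. That of Tcf7l2 had 42.0% G and C, 7 CpG and neither motif. The 3 start sites not printed were unlike these 2: those of Lef1 at positions 131110323 and 131112791 had 67.3% and 51.7% G and C, 21 and 8 CpG, and a peak in all 5 libraries, and that of Tcf7 at position 52282595 had 64.3% and 17 and a peak in the same 4 libraries as the outer one. Each held 1 GC box and no TCF/LEF core. A match to these letters does not show that a factor binds.

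A peak overlapped the printed window of the outer start site in all 5 libraries at Lef1, Tcf7l1, Tcf7l2 and Axin2. At Tcf7 it did so in 4 libraries and not in mutant 3. The strongest peak over the Axin2 window had its summit 252 and 219 bases downstream of the start site in controls 1 and 2, against 204, 218 and 131 bases downstream in mutants 1, 2 and 3. At Tcf7l2 the summit lay upstream, by 201 and 163 bases in the controls and by 363, 172 and 209 in mutants 1, 2 and 3. The printed window of the internal Lef1 start site overlapped a peak in control 1 (fold 3.99) and mutant 1 (2.93) alone, and that of Tcf7l2 in control 1 (3.47) alone. In the whole series both controls had such a peak at 93.6% of promoters with at least 15 CpG and 39.0% of those with 5 to 14 CpG. Of these promoters, 91.7% and 69.0% had a peak in all 3 mutants and 0.648% and 8.30% in none.

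Fewer regions held a peak in each mutant than in either control over the 5 loci as a whole. Controls 1 and 2 held a peak in 149 and 104 of the 185 regions, and mutants 1, 2 and 3 in 63, 75 and 39. The means were 126.5 ± 31.8 (SD, n = 2) and 59.0 ± 18.3 (SD, n = 3), 53.4% lower in the mutants, against 48.0% lower over all regions of the series. A two-sided exact permutation test returned p = 0.2 (n = 2 and 3), the smallest value that 2 against 3 libraries allow. With every list shortened to its 27194 strongest peaks the means were 46.0 and 43.3 (exact permutation p = 0.6, n = 2 and 3), a difference of -2.67 regions. Measured against all regions of its library, the 5 loci took 0.228% and 0.185% in controls 1 and 2, against 0.194%, 0.193% and 0.165% in mutants 1, 2 and 3, and these shares overlapped between the genotypes.

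The loci differed in how far the 2 genotypes stood apart. Lef1 held 34 and 24 regions in controls 1 and 2, against 12, 11 and 7 in mutants 1, 2 and 3. Tcf7l2 held 41 and 22 against 13, 13 and 6, and Tcf7l1 41 and 27 against 20, 22 and 15. At Tcf7 the values were 15 and 16 against 6, 12 and 4. At these 4 loci every mutant lay below both controls, and the mean was 65.5% lower at Lef1, 66.1% at Tcf7l2, 44.1% at Tcf7l1 and 52.7% at Tcf7 (exact permutation p = 0.2 each, n = 2 and 3, adjusted 0.25 over the 5 loci). Over all regions of the series every mutant also lay below both controls, with a mean 48.0% lower. Axin2 held 18 and 15 regions in the controls against 12, 17 and 7, 27.3% fewer on average (exact permutation p = 0.4, n = 2 and 3, adjusted 0.4). Mutant 2 there lay between the controls. Measured against all regions of its library, Axin2 took more in every mutant than in either control. The shares were 0.0276% and 0.0266% in controls 1 and 2, against 0.0370%, 0.0438% and 0.0296% in mutants 1, 2 and 3. That of Lef1 was lower in every mutant, at 0.0521% and 0.0426% against 0.0370%, 0.0283% and 0.0296%. At Tcf7, Tcf7l1 and Tcf7l2 the shares overlapped between the genotypes. No test between loci was made.

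**Figure D1:**
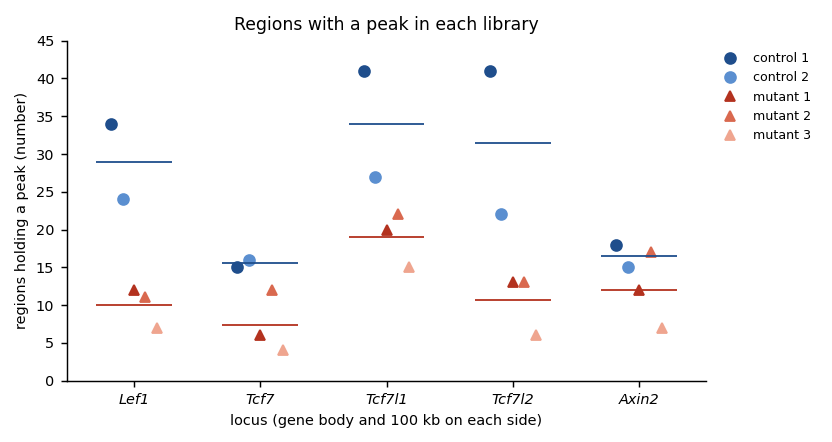
Number of regions with a peak (vertical axis) at each of the 5 loci (horizontal axis), 1 point per library, circles for controls and triangles for mutants, with lines at the mean of each genotype. Mutants lie below both controls at Lef1, Tcf7, Tcf7l1 and Tcf7l2, and overlap with them at Axin2, where mutant 2 held 17 regions.

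Both controls held a peak in 88 of the 185 regions, and 29 of the 88 had one in none of the mutants. That is 33.0%, close to the background of 30.4% of 45158 regions in the whole series. A further 35 (39.8%, against 43.4%) were present in every mutant, and 24 in 1 or 2 of them. By class, 1 of 15 regions within 1 kb of a gene end was without a mutant peak (background 4.64%) and 28 of 73 regions farther from gene ends, called distal here (38.4%, background 42.0%). The reverse pattern, peaks in all 3 mutants with neither control, was found at 0 regions here and at 42 in the series (0.0484%). Without control 1 the count without mutant peaks was 44 of 106 (41.5%, background 41.0%). Without control 2 it was 87 of 151 (57.6%, background 47.8%). Both rest on 1 control. At a deposited −log10 q of at least 5 the count was 19 of 62 (background 27.9%), in gene bodies with their ends 18 of 44 (40.9%, background 23.8%), in gene bodies away from gene ends 18 of 40 (background 40.2%), and with lists of equal length 6 of 40 (15%, background 13.3%).

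Lef1 stood highest among the 5 genes, with 9 of 20 regions of both controls absent from every mutant (45%, against 30.4% in the whole series). Tcf7l2 followed with 8 of 21 (38.1%), Tcf7 with 3 of 11 (27.3%), and Tcf7l1 and Axin2 with 6 of 24 and 3 of 12 (25.0% each). With the lists at equal length the counts were 1, 2, 0, 2 and 1. Some of the regions lay at or in neighbouring genes such as Hadh, Cyp2u1, Vdac1, Skp1, Capg or Retsat. Outside those genes, which held 18 of the 88 regions, the counts were 8 of 14 at Lef1, 8 of 21 at Tcf7l2, 6 of 16 at Tcf7l1, 2 of 8 at Tcf7 and 2 of 11 at Axin2. Together they were 26 of 70 (37.1%). Of those 70, 6 lay at ends of the member genes and the others were distal, where the background was 42.0%. The counts by gene are descriptions, with at most 24 regions a gene.

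**Figure D2:**
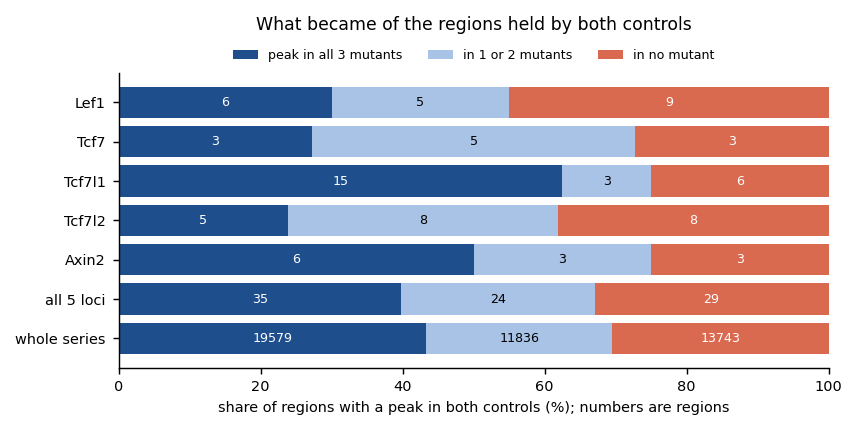
Share of the regions with a peak in both controls (horizontal axis, percent) that held a peak in all 3 mutants, in 1 or 2, or in none, for each gene, the 5 loci together and the whole series, with the number of regions printed in each bar. The 5 loci together (35, 24 and 29 regions) lie near the whole series, with Lef1 having the widest bar without mutant peaks and Tcf7l1 the widest with all 3, where 7 of its 15 regions lie at other genes.

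At Lef1 (chr3:131110297-131224357, + strand), an activating TCF/LEF factor, the start site held a peak in every library, while most regions that both controls held inside the gene had none in the mutants. A region over the start site, chr3:131109153-131112755, had folds of 8.32 and 6.47 in controls 1 and 2 and of 6.48, 9.2 and 5.89 in mutants 1, 2 and 3. Another, 3.4 kb upstream (chr3:131105522-131108281), had folds of 6.94 and 6.06 in controls 1 and 2 and of 5.86, 5.26 and 3.53 in mutants 1, 2 and 3. Both were thus present in all 5 libraries. Farther upstream chr3:131102097-131102976, 7.76 kb from the start site, had folds of 4.85 and 3.91 in controls 1 and 2, with no peak in any mutant. The next, chr3:131084766-131085467, had folds of 4.68 and 3.5 in controls 1 and 2 and of 4.01 in mutant 1, with no peak in mutants 2 and 3. The farthest, chr3:131019435-131019942, lay 90.6 kb upstream and had folds of 3.64 and 3.1 in controls 1 and 2 and of 3.87 in mutant 3, with no peak in mutants 1 and 2. Of the 4 upstream regions held by both controls, 1 was thus in every mutant, 1 in none and 2 in a single mutant.

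Inside Lef1, away from its ends, 16 regions held a peak. Control 1 held all 16 and control 2 held 8, against 1, 2 and 0 in mutants 1, 2 and 3. Of the 8 held by both controls, 7 were in no mutant, where the background for distal regions in gene bodies was 40.2%. That background is not matched for fold. Mean control folds of the 8 ran from 2.91 to 5.34. Among distal regions of the series, 75.1% had no mutant peak at a mean control fold under 3, and 59.2% from 3 to 4. The values were 39.7% from 4 to 5 and 26.7% from 5 to 6. Of the 8, the one with the highest mean control fold, chr3:131181870-131182653, lay 72 kb into the gene and had folds of 7.46 and 3.23 in controls 1 and 2, with no peak in any mutant. Control 1 was far above control 2 there. Nearer the 3′ end chr3:131214017-131214721 had folds of 4.68 and 4.31 in controls 1 and 2, with no peak in any mutant. The remaining region of both controls, chr3:131196081-131196968, had folds of 5.03 and 3.77 in controls 1 and 2 and of 3.28 in mutant 2, with no peak in mutants 1 and 3. The 9 regions of the Lef1 locus without a mutant peak had folds of 2.69 to 7.46, reaching down to near the lowest that the lists hold. With lists of equal length that count was 1. On the full lists, a further 14 regions of the locus were in 1 control alone, 12 of them in control 1.

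The internal start site of Lef1 printed above lay at the edge of a weak region, chr3:131156315-131156821, with folds of 3.99 in control 1 and of 3.24 and 2.96 in mutants 1 and 2, with no peak in control 2 or mutant 3. It overlapped between the genotypes, being in 1 control and 2 mutants. The strongest regions of the window belonged to neighbouring genes: chr3:131302461-131303684 at the end of Cyp2u1 had folds of 11.4 and 11 in controls 1 and 2 and of 9.57, 9.85 and 8.24 in mutants 1, 2 and 3, and chr3:131270994-131273149 at the end of Hadh had folds of 12.8 and 8.49 in controls 1 and 2 and of 8.02, 8.7 and 8.24 in mutants 1, 2 and 3. Both were in every library.

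**Figure D3:**
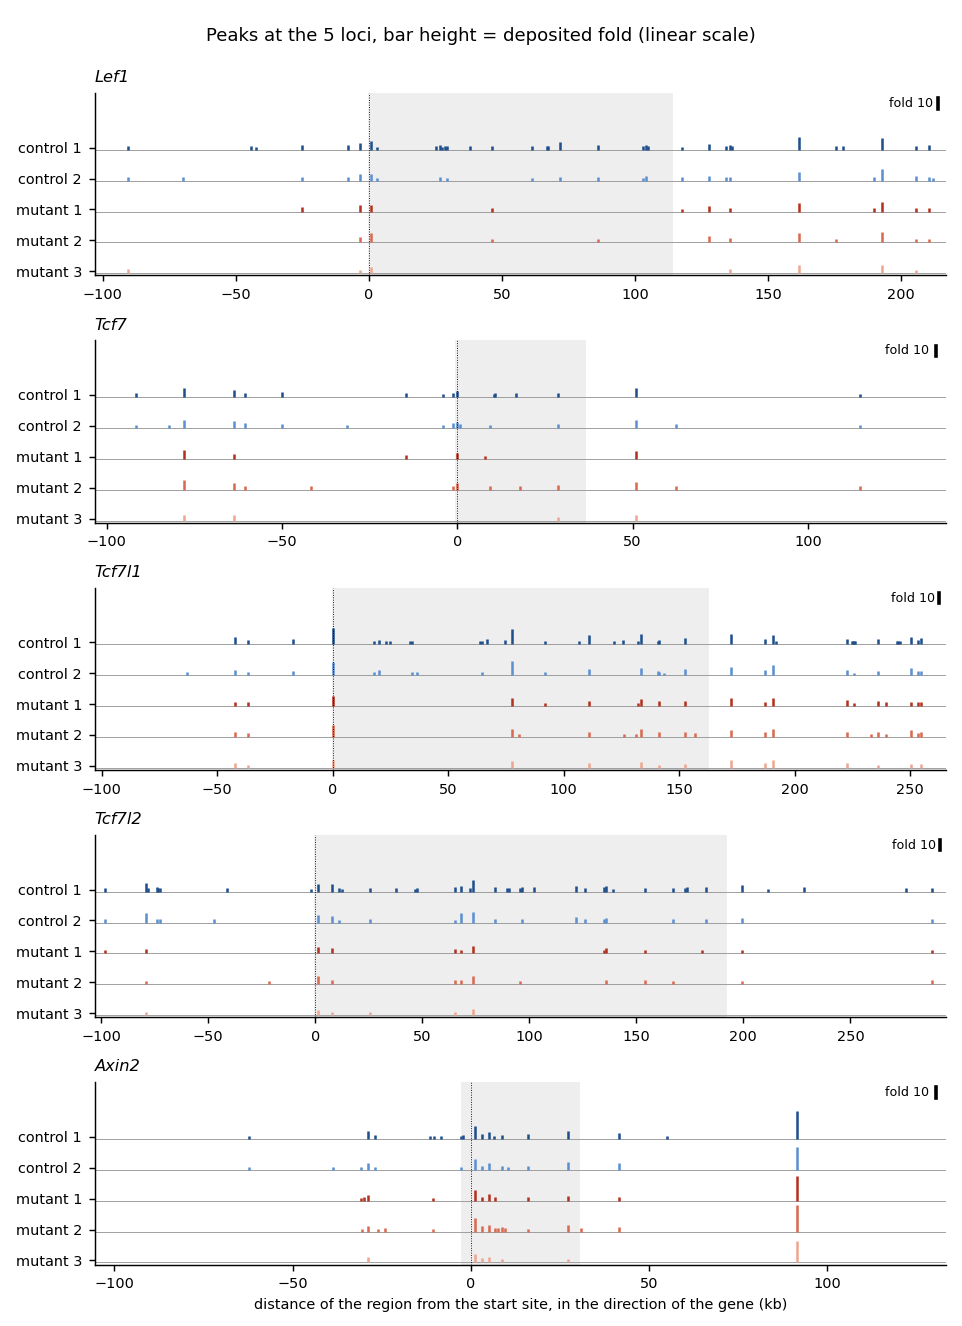
Merged regions at the 5 loci by distance from the listed start site in kb (horizontal axis), 1 row per library within each gene, with the gene body shaded and a bar for each region with a peak, whose height is the deposited fold on a linear scale. The 8 regions of both controls inside Lef1 are nearly empty in the mutant rows (7 had no mutant peak), while the body of Axin2 is filled in all 5 rows.

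Tcf7 (chr11:52246527-52283383, - strand) encodes a TCF/LEF factor that shares activating roles with Lef1. Its start-site region, chr11:52282442-52283671, had folds of 6.24 and 5.79 in controls 1 and 2 and of 5.71 and 6.73 in mutants 1 and 2, with no peak in mutant 3. A region just upstream, chr11:52284079-52284626, had folds of 3.81 and 4.31 in controls 1 and 2 and of 3.45 in mutant 2, with no peak in mutants 1 and 3. Mutant 2 thus held both, mutant 1 held the first and mutant 3 held neither. Mutant 3 also had the shortest peak list, and the part of that in the missing peak was not tested. Another region at that end of the gene, chr11:52282075-52282408, had a fold of 3.37 in control 2, with no peak in control 1 or any mutant.

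The only region of both controls inside Tcf7 away from its ends, chr11:52253890-52254446, had folds of 4.33 and 3.91 in controls 1 and 2 and of 4.27 and 3.03 in mutants 2 and 3, with no peak in mutant 1. Upstream, chr11:52346191-52347064 lay 63.6 kb from the start site and had folds of 6.59 and 7.14 in controls 1 and 2 and of 4.47, 6.73 and 5.05 in mutants 1, 2 and 3, present in every library. The 3 regions without a mutant peak were chr11:52332660-52333290 with folds of 4.51 and 3.91 in controls 1 and 2, chr11:52286936-52287201 with folds of 2.95 and 2.56 in controls 1 and 2, and chr11:52374341-52374767 inside Vdac1 with folds of 3.47 and 2.69 in controls 1 and 2. Their folds ran from 2.56 to 4.51. The highest mean control folds of the window were at chr11:52231555-52232749 inside Skp1, with folds of 9.02 and 8.08 in controls 1 and 2 and of 7.71, 7.72 and 5.72 in mutants 1, 2 and 3, and at chr11:52359941-52362079 at the end of Vdac1, with folds of 9.02 and 7.41 in controls 1 and 2 and of 8.49, 9.36 and 5.21 in mutants 1, 2 and 3. Both were in all 5 libraries. A further 3 mutant peaks had no control counterpart: chr11:52324736-52324935 and chr11:52265047-52265315 in mutant 2 (folds 3.12 and 3.45) and chr11:52275027-52275270 in mutant 1 (2.93).

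Tcf7l2 (chr19:55741797-55933659, + strand) encodes a factor that can activate or repress. Its start-site region, chr19:55740864-55745560, had folds of 7.28 and 7.28 in controls 1 and 2 and of 6.63, 7.72 and 5.05 in mutants 1, 2 and 3, a peak in every library. Inside the gene, 28 regions held a peak, 27 in control 1 and 14 in control 2 against 8, 8 and 4 in mutants 1, 2 and 3. Of the 14 held by both controls, 6 were in no mutant, 5 in some and 3 in all.

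The strongest region of the locus lay inside the gene, 73.5 kb from the start site: chr19:55814523-55816112 had folds of 11.6 and 9.84 in controls 1 and 2 and of 6.94, 8.38 and 6.06 in mutants 1, 2 and 3. Its neighbour chr19:55809337-55810440 had folds of 5.55 and 9.16 in controls 1 and 2 and of 3.24 and 3.94 in mutants 1 and 2, with no peak in mutant 3. Upstream, chr19:55662052-55663172 lay 79.2 kb away and had folds of 8.84 and 9.3 in controls 1 and 2 and of 4.32, 3.28 and 3.2 in mutants 1, 2 and 3. The first and the last were in all 5 libraries, with every mutant fold below both control folds on their separate scales. The median fold over all 19579 regions in every library was likewise lower in each mutant, at 7.63 and 7.01 in the controls against 5.86, 6.57 and 5.05. Among the 8 regions without a mutant peak, the strongest was chr19:55863395-55864057, 122 kb into the gene, with folds of 5.2 and 4.99 in controls 1 and 2. Closer to the median mean control fold of the 21 regions of both controls, but above it, was chr19:55825592-55826446, with folds of 4.51 and 3.77 in controls 1 and 2. The same held for chr19:55837962-55838475, with folds of 4.33 and 3.91 in controls 1 and 2. These 3 stood clear of the lowest fold of either control list. The internal start site lay in chr19:55895276-55896151, with folds of 3.47 in control 1 and of 3.39 and 4.11 in mutants 1 and 2, with no peak in control 2 or mutant 3. Peaks in a single mutant alone were chr19:55719884-55720106 in mutant 2 (fold 2.96) and chr19:55922539-55922738 in mutant 1 (2.93).

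Tcf7l1 (chr6:72626371-72789045, - strand) encodes a factor that acts mainly as a repressor of WNT targets, and it had the largest share of both-control regions held by every mutant among the 5 genes, 15 of 24 (62.5%, against 43.4% in the whole series). That order rested on neighbouring genes, which held 7 of the 15. Outside them Tcf7l1 had 8 of 16 (50.0%) and Axin2 6 of 11 (54.5%). Its start-site region, chr6:72787195-72790281, had folds of 15.4 and 12.7 in controls 1 and 2 and of 9.41, 12 and 7.91 in mutants 1, 2 and 3. Inside the gene, chr6:72710483-72712323, 77.6 kb from the start site, had folds of 14.7 and 13.7 in controls 1 and 2 and of 8.18, 7.88 and 7.06 in mutants 1, 2 and 3. These 2 had the highest mean control folds of the locus, followed by chr6:72597719-72599209 at the ends of Elmod3 and Retsat with folds of 9.36 and 9.97 in controls 1 and 2 and of 8.18, 7.88 and 7.57 in mutants 1, 2 and 3. At all 3, every mutant fold was below both control folds on their separate scales, as was the median over all regions in every library. By rank of the fold within its own library, described below, only the region 77.6 kb from the start site was lower in every mutant. The start-site region ranked 98.4 and 92.5 in the controls against 87.3, 93.5 and 80.9. The region at Elmod3 and Retsat ranked 68.9 and 78.7 against 77.4, 64.1 and 78.3.

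The body of Tcf7l1 was divided, after the values were seen, at its first region held by all libraries. The absence of such regions before that border and their number beyond it are set by the division. Nothing is read from the contrast between the stretches. Of the 11 regions of both controls in the whole body, away from its ends, 5 had no mutant peak (background 40.2%). Between 17.9 and 74.8 kb from the start site lay 11 regions, of which controls 1 and 2 held 10 and 5 and the mutants none. The 4 held by both controls included chr6:72768662-72769535 with folds of 4.68 and 4.85 in controls 1 and 2, and chr6:72724113-72724861 with folds of 3.64 and 3.23 in controls 1 and 2. From 77.6 to 157 kb lay 16 regions, of which the controls held 11 and 8 and mutants 1, 2 and 3 held 7, 9 and 5. There 5 of the 7 held by both controls were in every library, which the division sets as well. Over the whole body it was 5 of 11, against 26.4% of distal regions of both controls in the series. Upstream of the gene chr6:72805787-72806490 had folds of 4.85 and 4.04 in controls 1 and 2, with no peak in any mutant. It was the only region of both controls on that side without a mutant peak, of 3.

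Axin2 (chr11:108917828-108950783, + strand), the feedback inhibitor, had the smallest percent difference in the number of regions between genotypes among the 5 genes. Inside the gene, 11 regions held a peak, 7 in each control and 6, 9 and 5 in mutants 1, 2 and 3, so the genotypes overlapped. These include the region over the listed start site, since the RefSeq gene body begins upstream of it. Without that region, both controls held 5, of which 3 were in every mutant, 2 in some of them and 0 absent from all 3 (background 40.2%). The region over the listed start site, chr11:108919953-108922890, had folds of 12.1 and 10.8 in controls 1 and 2 and of 10.3, 13 and 8.24 in mutants 1, 2 and 3. Mutant 2 had the highest of these folds. Farther in, chr11:108924732-108926077 had folds of 6.76 and 7.01 in controls 1 and 2 and of 6.94, 6.41 and 5.72 in mutants 1, 2 and 3, and chr11:108946684-108948577 had folds of 7.98 and 7.82 in controls 1 and 2 and of 4.78, 6.73 and 3.7 in mutants 1, 2 and 3. All 3 were in every library.

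The highest fold of any region at the 5 loci was 91.5 kb downstream of the Axin2 start site, at chr11:109011503-109012175, with folds of 27 and 22.5 in controls 1 and 2 and of 23.8, 26.1 and 20.9 in mutants 1, 2 and 3. All 5 libraries held it, and the genotypes overlapped. The 3 regions of both controls without a mutant peak were chr11:108917231-108917730, 2.87 kb upstream of the listed start site, with folds of 2.95 and 2.96 in controls 1 and 2; chr11:108893310-108893876 with folds of 3.64 and 3.1 in controls 1 and 2; and chr11:108857851-108858387 inside Cep112 with folds of 3.12 and 2.69 in controls 1 and 2. Their folds ran from 2.69 to 3.64. At the 3′ end chr11:108950977-108951544 had a peak in mutant 2 alone (fold 3.45), and chr11:108917910-108918130 near a gene end had a fold of 3.64 in control 1, with no peak in control 2 or any mutant. Axin2 also had 9 of the 20 regions with a peak in 1 or 2 mutants and in no control, 8 of them in mutant 2 and 3 in mutant 1, at folds of 2.79 to 3.78. This pattern made up 30% of the regions at Axin2, against 10.8% at the 5 loci together and 11.7% of all regions in the series. Mutant 2 held 88.9%, 85.0% and 73.1% of those regions.

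The strength of a region in the controls went with its absence from the mutants. Of regions with a mean control fold under 3, 6 of 8 had no mutant peak (75.0%, against 72.4% in the whole series), and of those from 3 to 4, 14 of 26 (53.8% against 55.5%). The values were 7 of 20 from 4 to 5 (35% against 34.5%) and 2 of 9 from 5 to 6 (22.2% against 20.6%). From 6 up, no region at the 5 loci lacked a mutant peak (0 of 12 from 6 to 8 and 0 of 13 from 8 up), where the series had 6.96% and 0.343%. At like strength the 5 loci were thus near the whole series. Median mean control fold was 3.55 for the 29 regions without a mutant peak and 6.88 for the 35 in all libraries, and median width was 633 and 1329 bp. The lowest listed folds were 2.43 and 2.29 in controls 1 and 2, against 2.47, 2.46 and 2.52 in mutants 1, 2 and 3. The lists being of unequal length, lower accessibility and a higher detection floor in the mutants cannot be told apart from presence alone.

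**Figure D4:**
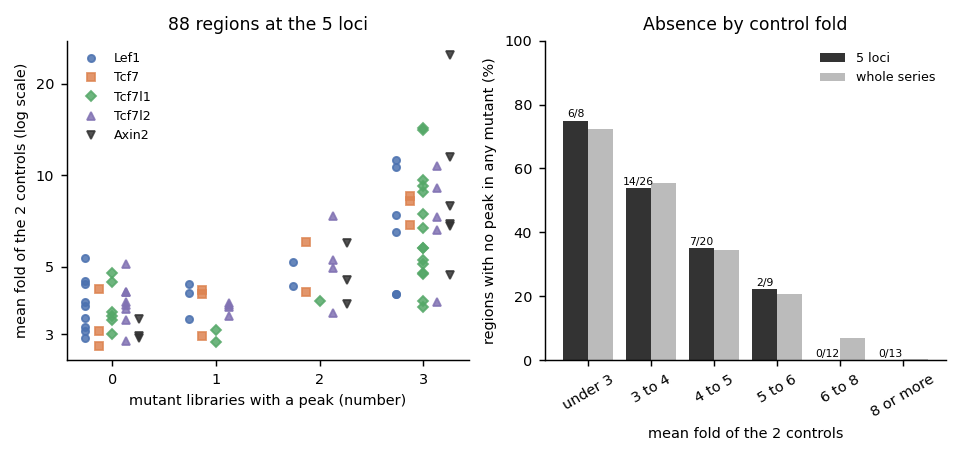
Left, mean control fold (vertical axis, log scale) of the 88 regions by the number of mutant libraries with a peak (horizontal axis), 1 point per region, marked by gene. Right, share of regions held by both controls that had no peak in any mutant (vertical axis, percent) by mean control fold (horizontal axis, classes), for the 5 loci and for the whole series. Both fall from over 70% below a fold of 3 (75.0% and 72.4%) to under 10% above 6.

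For the 35 regions in all 5 libraries, the rank of a region's fold was taken among the 19579 such regions of its own library, from 0 for the weakest to 100 for the strongest, since folds are not scaled between libraries. This measure was added after the data were seen. The rank was lower in every mutant than in both controls at 5 of the 35 (14.3%, background 11.6%) and higher in every mutant at 0 (background 12.8%). All 5 were distal (of 24, 20.8%, against 16.1% of distal regions in the series), and 3 were at Tcf7l2, which had 5 regions in all libraries. The upstream Tcf7l2 region 79.2 kb from the start site ranked 63.6 and 73.4 in controls 1 and 2, against 20.8, 2.60 and 5.28 in mutants 1, 2 and 3. The Tcf7l1 region 77.6 kb into the gene ranked 97.5 and 95.2 against 77.4, 64.1 and 73.8. At both, every mutant was well below both controls. The other Tcf7l2 regions were closer: the one 7.82 kb from the start site ranked 42.8 and 39.6 against 33.1, 17.5 and 2.43, and the one 73.5 kb from it ranked 87.2 and 77.6 against 63.6, 69.0 and 63.1. The Axin2 region 27.3 kb into the gene ranked 53.9 and 59.5 against 30.2, 51.9 and 18.5, with mutant 2 near control 1. Leaving out control 1 or control 2 gave 9 and 11 such regions (backgrounds of 23.4% and 23.9%), and leaving out mutant 3 gave 10 of 45 (background 19.3%).

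**Figure D5:**
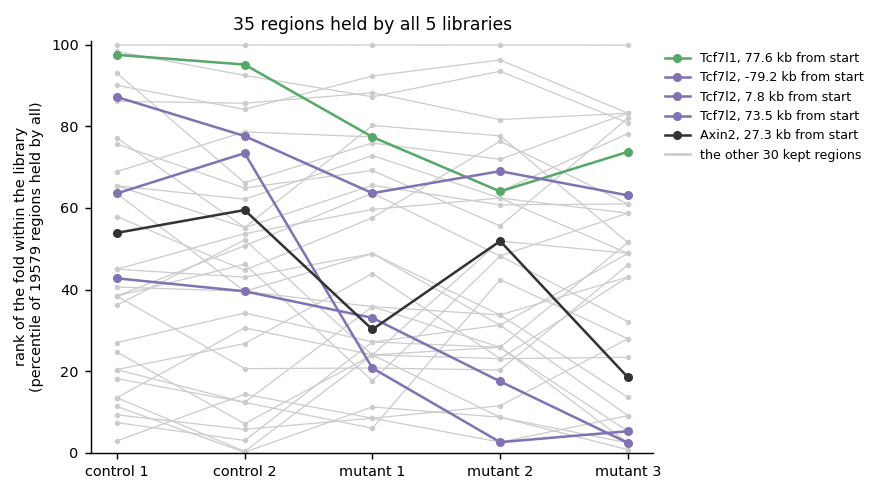
Rank of the fold within each library (vertical axis, 0 to 100) for the regions in all 5 libraries, with lines joining the libraries of 1 region and the 5 that ranked lower in every mutant drawn in colour. The upstream Tcf7l2 region falls from 63.6 and 73.4 in the controls to between 2.60 and 20.8 in the mutants.

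Other genes of the pathway were read in the same window of the gene and 100 kb on each side. At 16 genes listed for signal transduction, from ligand secretion to beta-catenin, 43 of 199 regions of both controls had no mutant peak (21.6%, background 30.4%). Among genes with at least 5 such regions, the share was lowest at the scaffold genes Dvl1 and Dvl3 and at Porcn, whose product prepares WNT ligands for secretion (0 of 16, 0 of 11 and 0 of 8), and highest at the receptor gene Fzd1 and the beta-catenin gene Ctnnb1 (5 of 8 each). At 15 genes of nuclear cofactors and repressors it was 24 of 160 (15%), and by the same minimum from 0 of 7 at the acetyltransferase gene Ep300 to 4 of 8 at the corepressor gene Tle4. At 15 feedback and target genes it was 38 of 152 (25.0%), and by the same minimum from 1 of 13 at Rnf43 to 8 of 18 at Znrf3, which both encode ubiquitin ligases that remove WNT receptors. No list held a region in all 3 mutants and neither control, and 106, 91 and 71 regions were in all 5 libraries. The lists were not split by class, and the background was 4.64% at gene ends and 42.0% at distal regions. The part of the class mix in these shares was not tested. No test between these lists and the 5 genes was made.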

How the data were processed

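Each library is an ATAC-seq peak list deposited by the authors. Per the submitters' processing notes, bcl2fastq 2.20.0, Bowtie2 2.3.5, MACS2 and the build mm10 were used; no further settings are stated in those notes. In the deposited lists, the authors give each peak's position in bp, a score, a fold enrichment, and −log10 p and q values. The fold is a ratio over the background of the peak's own library. Peaks were listed per library, not on pooled libraries. The fold was used to describe and rank peaks, and the −log10 q for an alternative threshold.

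Peaks sharing at least 1 bp were merged over the 5 libraries with Python 3.11.15, numpy 2.4.6 and pandas 2.3.3, and the merging was tested on simulated data. Gene-end regions lie at most 1 kb from a start or end of any RefSeq (GRCm38.p6) protein-coding gene, and all others are distal. The background of fragments was read from the grid of folds, on which 100% of values lay within 0.02 steps. Group means were compared with an exact two-sided permutation test (scipy 1.17.1). The labels give no replicate numbers shared between the genotypes. They say that embryos were separate, so the libraries were the units that the test permuted. Its p-value counts splits of these libraries and does not measure the spread between them.

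Named regions were those at an end of a member gene, the 3 with the highest mean control fold at each member, stronger regions without a mutant peak, and regions of 1 genotype where a member had 3 or fewer. Other named regions, the stretches of Tcf7l1, the promoter motifs and the ranks were chosen after the values were seen. The members and gene lists were chosen with earlier results of these data known. All 86 listed symbols matched RefSeq. Endothelial markers had a gene-end peak at 3 and 1 of 6 genes of the controls against 1, 1 and 1, blood markers at 2 of 6 in each library, muscle precursor markers at 6 and 5 of 6 against 4, 5 and 1, and neural crest and glia markers at 6 and 5 of 6 against 5, 6 and 5. Pecam1, Cdh5, Emcn, Ptprc, Gata1, Hba-a1 and Hbb-bs had none in any library.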

Additional observations from a re-analysis of the deposited data

How the results depend on the processing

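The number of regions per library was lower in the mutants under every alternative run, by -67.5 regions as reported, -41.2 at a deposited −log10 q of at least 5, -67.7 with peaks joined at 50% overlap, -52.8 with flanks of 50 kb, -37.8 in gene bodies alone, -50.8 with nearest genes only and -2.67 with lists at equal length. Leaving out 1 library gave -92 to -46. The 29 regions of both controls without a mutant peak became 19 at a −log10 q of at least 5, 6 at equal length and 18 in gene bodies alone, where fewer peaks or regions entered, and 31 to 87 when 1 library was left out, the highest without control 2. Regions in all mutants and no control numbered 0 as reported, 2 at equal length and 0 to 3 with 1 library left out, the highest without mutant 3. The 5 regions ranked lower in every mutant became 6 to 11 with 1 library left out. No paired analysis was possible because the labels give no replicate numbers shared between the groups. Read numbers are unknown, a region below the lowest fold of a list is not seen, and 2 against 3 libraries allow no p under 0.2.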
